A study of Mus musculus with 12 samples.

Results

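The genes described here encode the contractile apparatus of skeletal muscle and the proteins that handle its calcium, followed in mouse skin after a dermal burn. The rule that chose them used gene symbols and no measured value, though it was written with earlier results of these data known: myosin heavy and light chains, actin, tropomyosins, Z-disc and M-line proteins, calcium channels, stores and pumps, creatine kinases, myoglobin and acetylcholine receptor subunits. Of the 5599 genes with exactly 1 symbol on the array, 40 matched, on 50 probe sets. RNA came from skin taken 0 hours, 2 hours, 3 days or 14 days after a thermal injury, with 3 samples for each time and 1 Affymetrix array for each sample. All 12 samples were labelled as murine skin and total RNA. The strain, sex, age and body site were not given in the sources used here, nor was whether the 0 hours skin had been burnt or whether the replicates came from separate animals. All p-values therefore reflect only how far these samples varied among themselves, and some of that variation may be technical.

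Skeletal muscle contracts when myosin heads of the thick filament pull on actin of the thin filament, and both filaments are anchored in repeating units called sarcomeres, by the M-line and the Z-disc. A nerve signal reaches the fibre through the acetylcholine receptor, opens the voltage sensor in the membrane and releases calcium from the sarcoplasmic reticulum, after which pumps and buffers clear it. Fast and slow fibres use different versions of many of these proteins. Mouse skin carries a thin sheet of striated muscle, the panniculus carnosus, under the dermis, so an excised piece of skin can hold muscle as well as epidermis and dermis.

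The deposited values were signal intensities per probe set, and array medians lay between 448 and 496 units. Values under 225.4 units, the 25th percentile of all values, were set to that floor and taken to log2. A gene was tested if it had a probe set above 475.6 units, the median of all values, on at least 3 arrays, and 3477 genes passed. Among the 40 muscle genes 29 passed, and 25 of these were above that median on all 12 arrays. The other 11 were Actn2, Cacna2d1, Casq2, Chrna1, Chrnb1, Chrng, Myh3, Myh7, Myh8, Myl2 and Myl3, which did not enter the test and whose values are given below. Skeletal muscle transcripts were present on every array: 17 tested muscle genes outside the set, among them troponins and muscle glycolytic enzymes, had a mean log2 signal of 10.59 to 12.60. The epidermal keratin Krt10 had 15009 to 29999 units. The 0 hours replicate 3 array correlated least with the others over all probe sets, at a mean Spearman coefficient of 0.851.

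Most of the contractile and calcium-handling genes had less signal after injury. At 3 days 16 of the 29 tested genes had fallen against 0 hours and none had risen, where 4.40% of all 3477 genes fell, 8.89% rose and 13.3% changed in either direction. At 14 days 13 had fallen and 1, Tpm1, had risen, against 3.25% of all genes falling, 6.90% rising and 10.2% changing in either direction. Only Cacng1 had fallen at 2 hours, where 1.67% of all genes fell and 5.67% changed in either direction. A gene was called changed at an adjusted p under 0.05 in limma, with the p-values adjusted over all genes tested. The median log2 change of the 29 genes was −0.46 at 2 hours, −1.11 at 3 days and −0.82 at 14 days against 0 hours, and that of all genes was 0.05, 0.02 and 0.05. In these bulk samples fewer muscle cells and less muscle RNA per cell cannot be told apart.

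The 3 comparisons share the 0 hours arrays, so each is given on its own. Against 0 hours, 27 of the 29 genes had a negative change at 2 hours, where 45.4% of all genes did. At 3 days 26 did, with 48.2% of all genes, and at 14 days 26 did, with 44.1% of all genes. The arrays of the 2 time points did not overlap for 10 genes at 2 hours (23.4% of all genes) and 18 genes at 3 days (28.6%), all lower than at 0 hours. At 14 days they did not overlap for 19 genes (29.1% of all genes), of which 17 were lower and 2, Tpm1 and Myl4, higher. At 3 days against 2 hours Ank1, Ckmt2 and Myl1 fell further, where 3.31% of all genes fell, 6.10% rose and 9.40% changed in either direction. At 14 days against 3 days none of the 29 passed limma's test, either adjusted or at an unadjusted p under 0.05, and 3.39% of all genes changed. In that comparison 25 of the 29 had a positive change and 4 a negative one, where 42.4% of all genes had a negative one. The median change was 0.14, and −0.09 without 3 days replicate 3. The 14 days and 3 days arrays did not overlap for 2 genes, Tpm1 and Tpm3, both higher at 14 days (19.7% of all genes in either direction). The 3 days and 2 hours arrays did not overlap for 19 genes (35.2% of all genes), of which 17 were lower at 3 days and 2, Myl4 and Cacng1, higher. An F-test over the 4 time points called 16 of the 29 genes, against 21.2% of all genes. The mean log2 signal was highest at 0 hours for 25 of the 29 genes and lowest at 3 days for 20.

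The counts moved with single arrays. Without 3 days replicate 3 the count at 3 days was 6 (5.12% of all genes changed in either direction in that fit), and without 0 hours replicate 1 it was 9 (8.89%). At 14 days the count was 1 without 0 hours replicate 1 (4.52% of all genes) and 1 without 14 days replicate 1 (3.42%). It was 8 without 14 days replicate 2 (6.07%) and 8 without 14 days replicate 3 (6.70%). The genes called at 3 days whichever array was left out were Ank1, Myl1, Mylpf, Myoz1, Ryr1 and Sh3bgr, and Ank1 was the only one at 14 days. The single call at 2 hours, and the 3 calls between 2 hours and 3 days, were each lost without 1 or another of several arrays, as given with the genes below.

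**Figure D1:**
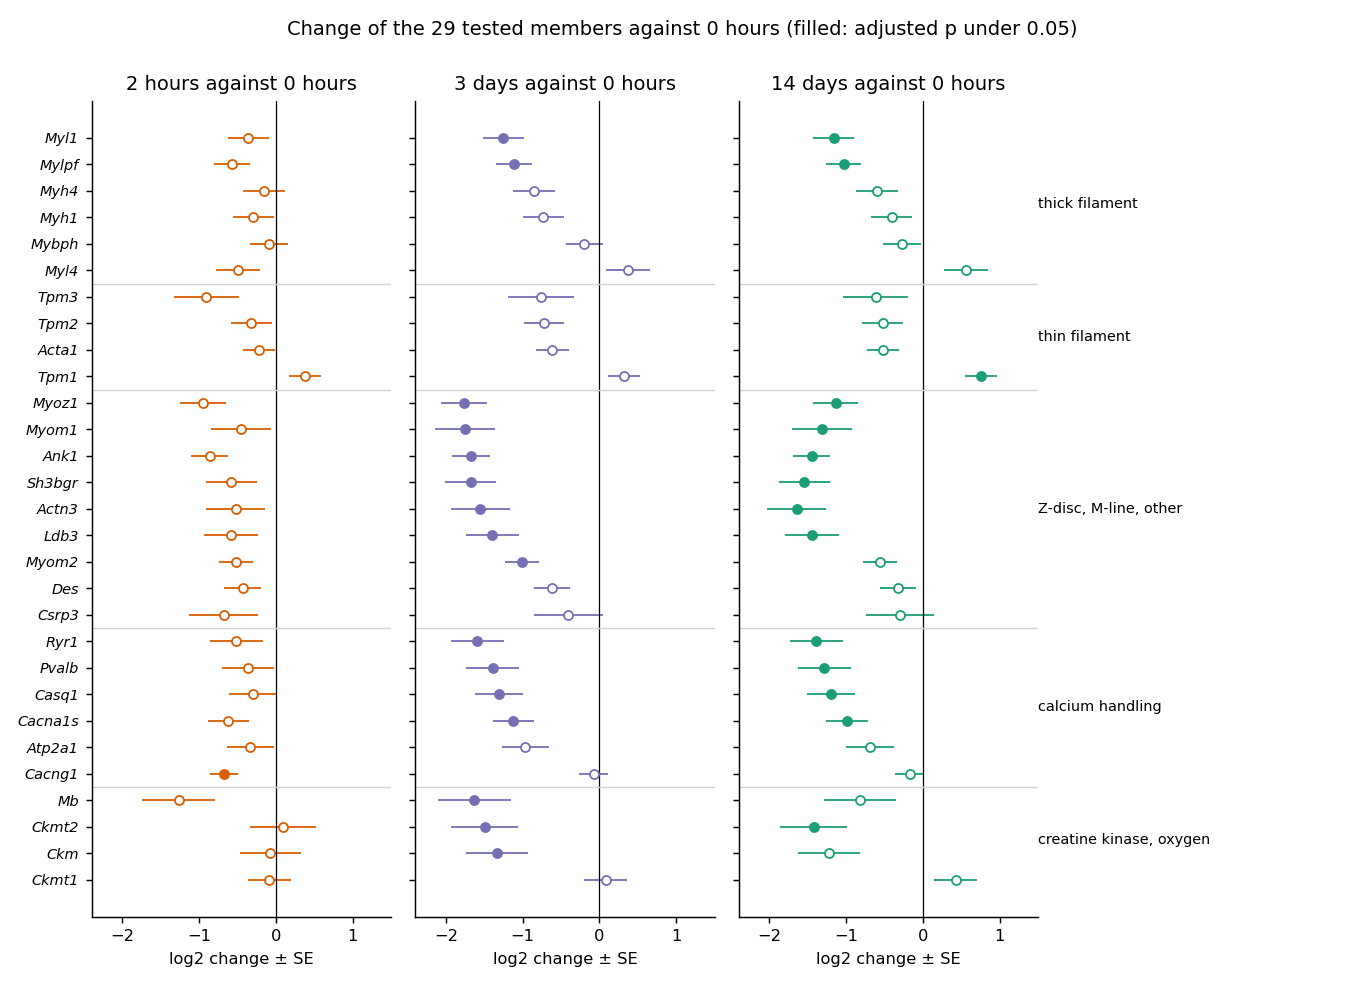
Log2 change (x axis) of the 29 tested muscle genes, grouped by role, at 2 hours, 3 days and 14 days against 0 hours, from a limma fit to 12 arrays with 3 per time point. Points are the fitted changes, bars are ± 1 SE, and filled points passed an adjusted p under 0.05. Filled points number 1 at 2 hours, 16 at 3 days and 14 at 14 days, and Tpm1 at 14 days is the filled point right of 0.

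The bases before the start site are shown for 1 gene of each role, as context for genes whose signal moved together and for Tpm1, which moved the other way. They are the 250 bases before the start in the RefSeq table of build GRCm38.p6, read 5′ to 3′ along the gene, at chr1:66945057-66945306, minus strand for Myl1, chr9:67049214-67049463, minus strand for Tpm1, chr17:71019307-71019556, plus strand for Myom1, chr7:29125152-29125401, minus strand for Ryr1 and chr13:91876886-91877135, minus strand for Ckmt2. The table gives 1 start per gene, and in the same build the gene's full span begins further upstream, by 2876 bases for Myl1, 459 for Tpm1, 16225 for Myom1, 28 for Ryr1 and 38 for Ckmt2. Capitals mark matches to motifs known from muscle promoters, searched on both strands: the E-box CANNTG, bound by myogenic factors, the CArG box, bound by serum response factor, the MEF2 site, and TATAAA. The motifs were counted apart, and the CArG box and MEF2 site can overlap TATAAA.
Myl1: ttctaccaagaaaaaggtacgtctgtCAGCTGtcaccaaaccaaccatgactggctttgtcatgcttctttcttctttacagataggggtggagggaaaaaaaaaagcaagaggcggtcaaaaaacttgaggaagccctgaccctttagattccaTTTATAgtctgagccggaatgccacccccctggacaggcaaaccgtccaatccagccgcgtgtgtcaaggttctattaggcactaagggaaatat
Tpm1: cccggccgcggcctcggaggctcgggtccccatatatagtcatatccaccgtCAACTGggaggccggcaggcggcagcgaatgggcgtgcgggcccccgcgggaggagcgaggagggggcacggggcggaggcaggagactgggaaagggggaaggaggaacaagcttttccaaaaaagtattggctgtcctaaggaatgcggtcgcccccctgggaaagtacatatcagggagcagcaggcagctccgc
Myom1: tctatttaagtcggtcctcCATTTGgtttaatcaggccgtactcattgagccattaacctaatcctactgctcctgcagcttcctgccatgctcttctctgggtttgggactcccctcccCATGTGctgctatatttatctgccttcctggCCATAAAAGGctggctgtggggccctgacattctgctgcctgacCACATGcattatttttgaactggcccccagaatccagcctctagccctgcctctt
Ryr1: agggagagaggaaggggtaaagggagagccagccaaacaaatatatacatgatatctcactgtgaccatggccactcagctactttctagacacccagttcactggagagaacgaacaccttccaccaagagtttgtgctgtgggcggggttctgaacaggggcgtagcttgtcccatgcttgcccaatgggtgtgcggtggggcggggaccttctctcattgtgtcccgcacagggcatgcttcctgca
Ckmt2: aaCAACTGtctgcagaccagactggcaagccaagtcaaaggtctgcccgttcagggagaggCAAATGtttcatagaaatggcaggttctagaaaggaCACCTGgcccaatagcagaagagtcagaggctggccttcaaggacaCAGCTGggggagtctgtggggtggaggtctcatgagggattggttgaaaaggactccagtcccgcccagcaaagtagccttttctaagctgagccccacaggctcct

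Myl1 held an E-box 224 bases before the start and TATAAA on the opposite strand 95 bases before it. Tpm1 held an E-box 198 bases before the start. Myom1 held E-boxes at 231, 130 and 55 bases and a CArG box at 99 bases, and Ckmt2 held E-boxes at 248, 189, 153 and 107 bases. These letters were not found in the window of Ryr1. Of the 40 muscle genes 34 had an entry, and an E-box was present in 27 of these (79.4%), against 66.1% of all 27018 windows in the table. The CArG box was present in 5 (14.7%: Acta1, Ldb3, Myh4, Myl3 and Myom1), against 1.399%. TATAAA was present in 9 (26.5%), against 12.97%, and the MEF2 site in 0, against 0.518%. A match describes the letters only.

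Of the 6 tested thick-filament genes, the fast light chains Myl1 and Mylpf fell at 3 days (4.40% of all genes) and at 14 days (3.25%). Myl1 encodes the fast essential light chain of myosin. Its signal was 66713, 49005 and 45982 at 0 hours, 49689.5, 36798 and 38852 at 2 hours, 30269, 26481 and 13781 at 3 days, and 21345, 24653 and 25687 at 14 days. Every 3 days and 14 days array lay below every 0 hours array. The log2 change of Myl1 in limma was −1.26 ± 0.27 (adjusted p = 0.0072) at 3 days, a 2.39-fold lower level, and −1.16 ± 0.27 (adjusted p = 0.015) at 14 days. Mylpf, the fast regulatory light chain, had a signal of 3585, 2730.4 and 3315 at 0 hours, 2289, 2050.1 and 2078 at 2 hours, 1650.3, 1984 and 991 at 3 days, and 1572, 1387 and 1733 at 14 days. All later arrays, 2 hours included, lay below the 0 hours arrays. Its limma change was −1.11 ± 0.23 (adjusted p = 0.0069) at 3 days and −1.03 ± 0.23 (adjusted p = 0.013) at 14 days. Myl1 and Mylpf each lost a call of 14 days against 0 hours when 1 array was left out, with limma's adjusted p in brackets: without 0 hours replicate 1, Myl1 (0.062) and Mylpf (0.053), and without 14 days replicate 1, Myl1 (0.065) and Mylpf (0.052), and without 14 days replicate 2, Mylpf (0.054). Myl1 also fell further at 3 days against 2 hours, with a log2 change of −0.90 ± 0.27 (adjusted p = 0.049) in limma. Myl1 kept its call of 3 days against 2 hours only without 0 hours replicate 1, 0 hours replicate 3 and 3 days replicate 1, and leaving out any 1 of the other 9 arrays gave an adjusted p of 0.058 to 0.25 in limma.

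The fast myosin heavy chains did not pass the test at either later time. Myh4, the heavy chain of the fastest fibres, had a signal of 47887, 35291 and 29851 at 0 hours, 32546, 34309 and 32862 at 2 hours, 25238, 23035 and 14725 at 3 days, and 16392, 32635 and 27513 at 14 days. The 3 days arrays lay below the 0 hours arrays and the 14 days arrays overlapped them. Its limma change was −0.85 ± 0.27 (adjusted p = 0.052) at 3 days and −0.59 ± 0.27 (adjusted p = 0.17) at 14 days. Myh1, the IIx heavy chain, spanned 10159 to 19085 on the 0 hours arrays, 10954 to 13429 on the 2 hours arrays, 6450.0 to 11824 on the 3 days arrays and 8692 to 12827 on the 14 days arrays, with changes of −0.73 ± 0.27 (adjusted p = 0.079) and −0.41 ± 0.27 (adjusted p = 0.34) in limma at 3 and 14 days. The myosin heavy chain genes are near-identical over long stretches, and Myh1, Myh3, Myh4 and Myh8 neighbour each other on chromosome 11, so a probe set may also read a related transcript. Mybph, a myosin-binding protein, spanned 1026 to 1487 on the 0 hours arrays, 849.7 to 1418 on the 2 hours arrays, 885 to 1245 on the 3 days arrays and 794 to 1270.4 on the 14 days arrays, with changes of −0.20 ± 0.24 (adjusted p = 0.63) and −0.28 ± 0.24 (adjusted p = 0.50) in limma.

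Myl4, the light chain of embryonic muscle and of the atrium, had positive changes at 3 days and 14 days that did not pass the test. Its brighter probe set had a signal of 339, 592 and 453 at 0 hours, 356, 197 and 409.8 at 2 hours, 509, 442 and 867 at 3 days, and 725, 657 and 617 at 14 days, and the 14 days arrays lay above all 0 hours arrays. The limma change was −0.49 ± 0.29 (adjusted p = 0.34) at 2 hours, 0.37 ± 0.29 (adjusted p = 0.42) at 3 days, 0.56 ± 0.29 (adjusted p = 0.22) at 14 days and 0.86 ± 0.29 (adjusted p = 0.080) at 3 days against 2 hours. Because 1 of the 2 hours arrays was at the floor, the first and the last of these are lower bounds in size. The dimmer probe set had a signal of 148, 402 and 303 at 0 hours, 134, 180.0 and 155 at 2 hours, 439, 337 and 954 at 3 days, and 883, 1390.3 and 245 at 14 days. Its changes with the floor were 0.79 at 3 days and 1.15 at 14 days against 0 hours, the same sign as in the brighter one. With 1 of the 0 hours arrays at the floor, both are lower bounds.

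Among the 4 tested thin-filament genes of the set, actin and the tropomyosins, no fall passed the test. Of these 1, Tpm1, rose at 14 days, where 6.90% of all genes rose. Troponins also belong to the thin filament but are outside the set. The fast troponin C, Tnnc2, fell at 3 days and at 14 days, as given below. Tpm1, the alpha tropomyosin that regulates access of myosin to actin and is also made by smooth muscle and other cells, had a signal of 1326, 1645 and 1100.1 at 0 hours, 2139, 1484 and 1652 at 2 hours, 1755, 1706 and 1541 at 3 days, and 2704, 2064 and 2069.7 at 14 days. Each 14 days array lay above every 0 hours array and above every 3 days array. Its limma change was 0.76 ± 0.21 (adjusted p = 0.032) at 14 days and 0.31 ± 0.21 (adjusted p = 0.33) at 3 days. Tpm1 kept its call of 14 days against 0 hours only without 0 hours replicate 2, 2 hours replicate 1, 2 hours replicate 2, 2 hours replicate 3, 3 days replicate 1, 3 days replicate 2 and 3 days replicate 3, and leaving out any 1 of the other 5 arrays gave an adjusted p of 0.056 to 0.14 in limma. Acta1, skeletal muscle alpha-actin, had a signal of 54893, 42203 and 34255 at 0 hours, 35549, 41361 and 34289 at 2 hours, 30809.7, 31042 and 23234 at 3 days, and 25979, 32115 and 32062 at 14 days. The 3 days and 14 days arrays lay below the 0 hours arrays, and the changes were −0.61 ± 0.21 (adjusted p = 0.065) and −0.52 ± 0.21 (adjusted p = 0.12) in limma. Its transcript is close to those of other actins, so the probe set may also read those.

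Tpm2, the beta tropomyosin, had a signal of 12664, 8496 and 10305 at 0 hours, 8594, 9330.2 and 7086 at 2 hours, 8934, 6549.5 and 4211 at 3 days, and 5709, 7825 and 8343 at 14 days. The 3 days replicate 1 array lay among the 0 hours arrays and the other 3 days arrays lay below them. Its changes were −0.72 ± 0.26 (adjusted p = 0.080) at 3 days and −0.52 ± 0.26 (adjusted p = 0.21) at 14 days in limma. Tpm3, the tropomyosin of slow fibres that is also found outside muscle, had a signal of 3449, 605 and 939 at 0 hours, 627, 777 and 613 at 2 hours, 696, 757 and 770.4 at 3 days, and 797, 831 and 820.4 at 14 days. The 0 hours replicate 1 array stood far above the other 11, which lay close together, and the changes of −0.76 ± 0.43 (adjusted p = 0.25) and −0.62 ± 0.43 (adjusted p = 0.38) did not pass limma's test.

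The genes of the Z-disc, the M-line and others, among them Ank1 and Sh3bgr, made up the largest group tested. Of these 9 genes, 7 fell at 3 days (4.40% of all genes) and 6 at 14 days (3.25%). Ank1 is an ankyrin whose small muscle form links the sarcoplasmic reticulum to the sarcomere, and the gene is also expressed in red cells. It had a signal of 3351, 1969 and 2496 at 0 hours, 1272, 1489 and 1444 at 2 hours, 846, 982 and 611 at 3 days, and 765, 1184 and 891 at 14 days. All 9 later arrays lay below the 0 hours arrays. The limma change of Ank1 was −1.67 ± 0.24 (adjusted p = 0.00056) at 3 days, a 3.19-fold lower level, −1.45 ± 0.24 (adjusted p = 0.0024) at 14 days and −0.86 ± 0.24 (adjusted p = 0.0503) at 2 hours, just outside the threshold. Myoz1, a Z-disc protein of fast fibres that binds calcineurin, had a signal of 16525, 9700.0 and 10268 at 0 hours, 7338, 6599 and 4703 at 2 hours, 4628, 4025 and 2253 at 3 days, and 4196, 6452 and 5715 at 14 days. Again no later array reached the 0 hours arrays. The change of Myoz1 was −1.76 ± 0.29 (adjusted p = 0.0013) at 3 days, a 3.40-fold lower level, and −1.14 ± 0.29 (adjusted p = 0.025) at 14 days in limma. Myoz1 lost its call of 14 days against 0 hours without 0 hours replicate 1 (adjusted p = 0.10), without 14 days replicate 1 (adjusted p = 0.11) and without 14 days replicate 3 (adjusted p = 0.055) in limma.

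At 3 days against 2 hours Ank1 fell as well, with a log2 change of −0.81 ± 0.24 (adjusted p = 0.049) in limma, and no 3 days array reached the 2 hours arrays. Ank1 kept its call of 3 days against 2 hours only without 0 hours replicate 1 and 0 hours replicate 2, and leaving out any 1 of the other 10 arrays gave an adjusted p of 0.051 to 0.24 in limma.

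Sh3bgr, an SH3-domain binding protein of striated muscle, had a signal of 4822, 3361 and 2694 at 0 hours, 2855, 1891 and 2406 at 2 hours, 1716, 1320.3 and 595 at 3 days, and 1018, 1375 and 1263 at 14 days. The 3 days and 14 days arrays lay below all 0 hours and 2 hours arrays. Its change in limma was −1.67 ± 0.33 (adjusted p = 0.0048) at 3 days, a 3.19-fold lower level, and −1.54 ± 0.33 (adjusted p = 0.011) at 14 days. Actn3, the alpha-actinin of fast fibres that crosslinks actin at the Z-disc, had a signal of 33198, 17404 and 17646 at 0 hours, 16858, 15383 and 13240.2 at 2 hours, 12789.7, 8242 and 3861 at 3 days, and 4545, 8941 and 8199 at 14 days. No later array reached the 0 hours arrays. The change of Actn3 was −1.55 ± 0.38 (adjusted p = 0.016) at 3 days and −1.65 ± 0.38 (adjusted p = 0.015) at 14 days in limma. Actn3 lost its call of 3 days against 0 hours without 0 hours replicate 1 (adjusted p = 0.066) and without 3 days replicate 3 (adjusted p = 0.082) in limma. Sh3bgr and Actn3 each lost a call of 14 days against 0 hours when 1 array was left out, with limma's adjusted p in brackets: without 0 hours replicate 1, Sh3bgr (0.0504) and Actn3 (0.069), and without 14 days replicate 1, Sh3bgr (0.054) and Actn3 (0.081).

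Myom1 and Myom2 crosslink myosin at the M-line. Myom1 spanned 1504 to 3412 on the 0 hours arrays, 1808 to 1944 on the 2 hours arrays, 407 to 1482 on the 3 days arrays and 801 to 1189 on the 14 days arrays, with a limma change of −1.75 ± 0.39 (adjusted p = 0.0094) at 3 days and −1.32 ± 0.39 (adjusted p = 0.045) at 14 days. Myom2 spanned 1011 to 1419.6 on the 0 hours arrays, 766 to 978 on the 2 hours arrays, 475 to 737 on the 3 days arrays and 718 to 1019 on the 14 days arrays, with −1.01 ± 0.22 (adjusted p = 0.0083) at 3 days and −0.55 ± 0.22 (adjusted p = 0.12) at 14 days. Ldb3, a PDZ and LIM protein of the Z-disc, spanned 6569 to 17025 on the 0 hours arrays, 5364 to 6941 on the 2 hours arrays, 2179 to 5203 on the 3 days arrays and 2963 to 4247 on the 14 days arrays, with −1.39 ± 0.35 (adjusted p = 0.017) and −1.45 ± 0.35 (adjusted p = 0.018) in limma at 3 and 14 days. Neither Des nor Csrp3 passed. Des, the intermediate filament of muscle, spanned 1663 to 3199 on the 0 hours arrays, 1621 to 1664 on the 2 hours arrays, 1356 to 1595 on the 3 days arrays and 1359.9 to 2158 on the 14 days arrays, with limma changes of −0.62 ± 0.24 (adjusted p = 0.097) at 3 days and −0.33 ± 0.24 (adjusted p = 0.40) at 14 days. Csrp3, a LIM protein of the Z-disc most abundant in heart and slow fibres, spanned 489.5 to 2358 on the 0 hours arrays, 745 to 893 on the 2 hours arrays, 792 to 1242 on the 3 days arrays and 722 to 1545 on the 14 days arrays, with −0.40 ± 0.44 (adjusted p = 0.58) and −0.30 ± 0.44 (adjusted p = 0.71). Myom1, Myom2 and Ldb3 each lost a call of 3 days against 0 hours when 1 array was left out, with limma's adjusted p in brackets: without 0 hours replicate 1, Ldb3 (0.065), and without 3 days replicate 3, Myom1 (0.051), Myom2 (0.053) and Ldb3 (0.094). Ldb3 lost its call of 14 days against 0 hours without 0 hours replicate 1 (adjusted p = 0.071), without 14 days replicate 1 (adjusted p = 0.079) and without 14 days replicate 2 (adjusted p = 0.055) in limma. Myom1 kept its call of 14 days against 0 hours only without 0 hours replicate 3, 3 days replicate 1 and 3 days replicate 3, and leaving out any 1 of the other 9 arrays gave an adjusted p of 0.058 to 0.16 in limma.

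**Figure D2:**
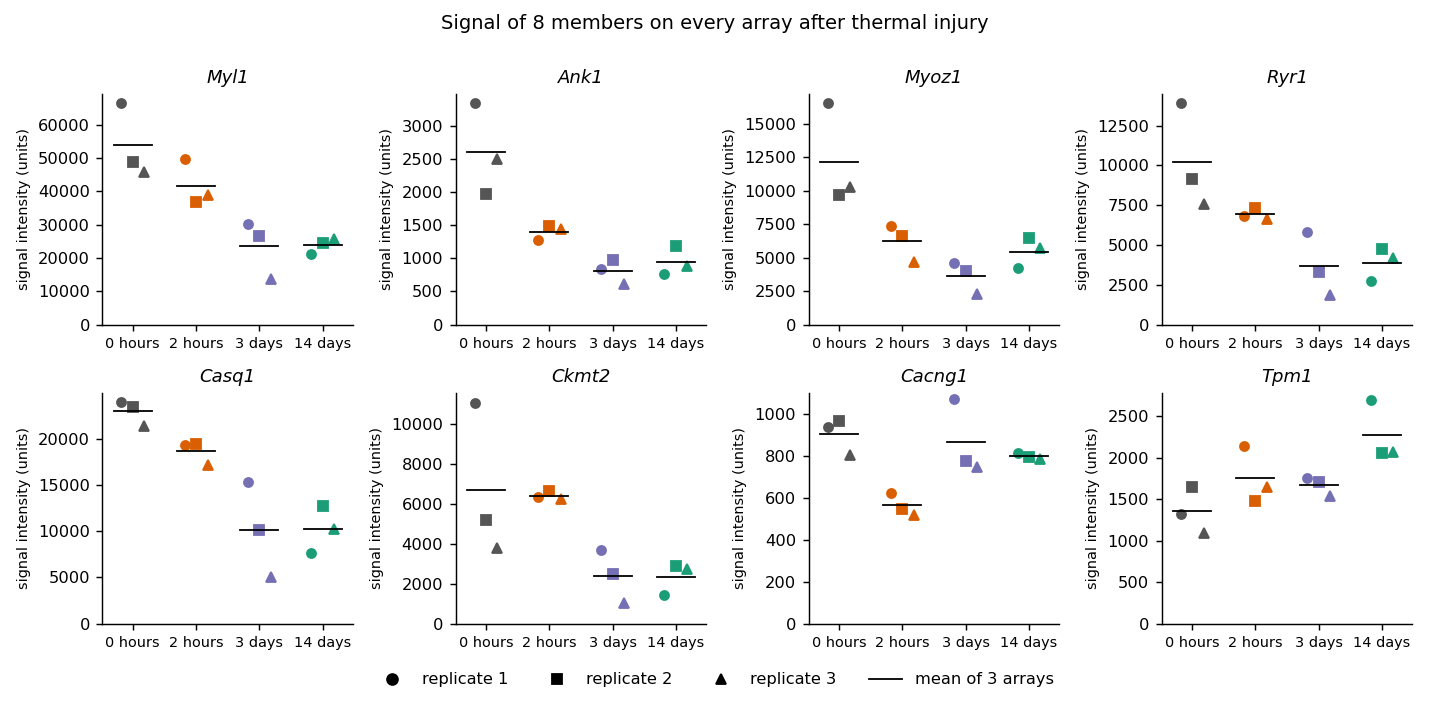
Signal intensity in units (linear y axis from 0) of 8 muscle genes on each of the 12 arrays by time after injury (x axis). Symbols are replicates 1 to 3 and the lines are means of 3 arrays. Myl1, Ank1, Myoz1, Ryr1, Casq1 and Ckmt2 are lower on the 3 days and 14 days arrays than on the 0 hours arrays, Cacng1 is lowest at 2 hours, and Tpm1 is highest at 14 days.

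Calcium handling fell in 4 of 6 tested genes, both at 3 days (4.40% of all genes fell) and at 14 days (3.25%). Ryr1 is the release channel of the sarcoplasmic reticulum. Its signal was 13898, 9178 and 7593 at 0 hours, 6833, 7314 and 6630.4 at 2 hours, 5825, 3314 and 1833 at 3 days, and 2748, 4746 and 4153 at 14 days. No later array reached the 0 hours arrays, and the 3 days replicate 3 array was the lowest. The limma change of Ryr1 was −1.59 ± 0.35 (adjusted p = 0.0084) at 3 days, a 3.01-fold lower level, and −1.39 ± 0.35 (adjusted p = 0.022) at 14 days. Cacna1s, the voltage sensor that opens Ryr1, had a signal of 3058, 2036 and 1992 at 0 hours, 1617, 1566 and 1349.6 at 2 hours, 1511, 1114 and 717 at 3 days, and 899, 1287 and 1369.5 at 14 days. All later arrays again lay below the 0 hours arrays. Its change was −1.12 ± 0.27 (adjusted p = 0.014) at 3 days and −0.99 ± 0.27 (adjusted p = 0.031) at 14 days in limma. Cacna1s lost its call of 3 days against 0 hours without 0 hours replicate 1 (adjusted p = 0.058) and without 3 days replicate 3 (adjusted p = 0.079) in limma. Ryr1 and Cacna1s each lost a call of 14 days against 0 hours when 1 array was left out, with limma's adjusted p in brackets: without 0 hours replicate 1, Ryr1 (0.088) and Cacna1s (0.12), and without 14 days replicate 1, Ryr1 (0.10) and Cacna1s (0.13), and without 14 days replicate 2, Cacna1s (0.062).

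Casq1, the calcium-binding protein inside the store of fast fibres, had a signal of 24006, 23481 and 21393 at 0 hours, 19347, 19397 and 17119 at 2 hours, 15356, 10159 and 5041 at 3 days, and 7606, 12730.2 and 10245 at 14 days. The 0 hours arrays lay within a narrow range and all others were below it. The limma change of Casq1 was −1.31 ± 0.31 (adjusted p = 0.014) at 3 days and −1.20 ± 0.31 (adjusted p = 0.026) at 14 days. Pvalb, the soluble calcium buffer that speeds relaxation of fast fibres, had a signal of 65273, 44249 and 44047 at 0 hours, 39001, 39835 and 38431 at 2 hours, 32063, 22957 and 9581 at 3 days, and 15841, 24611 and 22620.0 at 14 days. It too was below the 0 hours range on all later arrays. The change of Pvalb was −1.39 ± 0.34 (adjusted p = 0.016) at 3 days and −1.28 ± 0.34 (adjusted p = 0.028) at 14 days in limma. Atp2a1, the pump that returns calcium to the store in fast fibres, spanned 40705 to 68713 on the 0 hours arrays, 34385 to 44448 on the 2 hours arrays, 14785 to 35187 on the 3 days arrays and 24155 to 36224 on the 14 days arrays. Its changes of −0.97 ± 0.31 (adjusted p = 0.0504) and −0.69 ± 0.31 (adjusted p = 0.16) did not pass in limma, although the 3 days and 14 days arrays lay below all 0 hours arrays. Casq1 and Pvalb each lost a call of 3 days against 0 hours when 1 array was left out, with limma's adjusted p in brackets: without 0 hours replicate 1, Pvalb (0.060), and without 3 days replicate 3, Casq1 (0.055) and Pvalb (0.058). Casq1 and Pvalb each lost a call of 14 days against 0 hours when 1 array was left out, with limma's adjusted p in brackets: without 0 hours replicate 1, Casq1 (0.072) and Pvalb (0.10), and without 14 days replicate 1, Casq1 (0.11) and Pvalb (0.12), and without 14 days replicate 3, Casq1 (0.059) and Pvalb (0.057).

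Cacng1, the gamma subunit of the muscle calcium channel, had its lowest mean at 2 hours. It had a signal of 938, 967 and 803 at 0 hours, 624, 548 and 519.9 at 2 hours, 1073, 776 and 748 at 3 days, and 812, 795 and 786 at 14 days. The 2 hours arrays lay below all 9 others. The limma change was −0.68 ± 0.19 (adjusted p = 0.046) at 2 hours, a 1.60-fold lower level, −0.08 ± 0.19 (adjusted p = 0.83) at 3 days and −0.17 ± 0.19 (adjusted p = 0.59) at 14 days. At 3 days against 2 hours the change was 0.60 ± 0.19 (adjusted p = 0.056) in limma, which did not pass. Cacng1 kept its call of 2 hours against 0 hours only without 3 days replicate 1 and 3 days replicate 3, and leaving out any 1 of the other 10 arrays gave an adjusted p of 0.052 to 0.17 in limma.

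Energy supply and oxygen storage held 3 falls at 3 days (4.40% of all genes fell) and 1 at 14 days (3.25%) among 4 tested genes. Ckmt2, the creatine kinase of sarcomeric mitochondria, had a signal of 11054, 5188 and 3809 at 0 hours, 6326, 6659 and 6229 at 2 hours, 3672, 2504 and 1058 at 3 days, and 1442, 2886 and 2715 at 14 days. The 3 days and 14 days arrays lay below all 0 hours arrays, and the 2 hours arrays lay within their range. The limma change of Ckmt2 was −1.50 ± 0.43 (adjusted p = 0.033) at 3 days, −1.42 ± 0.43 (adjusted p = 0.049) at 14 days and −1.58 ± 0.43 (adjusted p = 0.033) at 3 days against 2 hours. Ckm, the cytosolic muscle creatine kinase, had a signal of 11226, 6497 and 4994 at 0 hours, 6614, 6987 and 6783 at 2 hours, 5336, 3082 and 1386 at 3 days, and 2125, 3649 and 3726 at 14 days. Its 3 days replicate 1 array lay above the lowest 0 hours array. The change of Ckm was −1.33 ± 0.40 (adjusted p = 0.042) at 3 days and −1.22 ± 0.40 (adjusted p = 0.065) at 14 days in limma. Ckmt2 lost its call of 3 days against 0 hours without 0 hours replicate 1 (adjusted p = 0.13), without 3 days replicate 2 (adjusted p = 0.060) and without 3 days replicate 3 (adjusted p = 0.16) in limma. Ckm kept its call of 3 days against 0 hours only without 0 hours replicate 3, 3 days replicate 1 and 14 days replicate 1, and leaving out any 1 of the other 9 arrays gave an adjusted p of 0.051 to 0.20 in limma. Ckmt2 kept its call of 14 days against 0 hours only without 0 hours replicate 3, 3 days replicate 1 and 3 days replicate 3, and leaving out any 1 of the other 9 arrays gave an adjusted p of 0.061 to 0.19 in limma. Ckmt2 kept its call of 3 days against 2 hours only without 0 hours replicate 1, 0 hours replicate 2, 0 hours replicate 3, 3 days replicate 1, 14 days replicate 1, 14 days replicate 2 and 14 days replicate 3, and leaving out any 1 of the other 5 arrays gave an adjusted p of 0.070 to 0.17 in limma.

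Mb, the oxygen-binding protein of oxidative fibres, had a signal of 10102, 8881 and 1901 at 0 hours, 2694, 2139.9 and 2114 at 2 hours, 1897, 2459 and 1235 at 3 days, and 2410.1, 3710.1 and 3469 at 14 days. Only 0 hours replicates 1 and 2 stood apart, and 0 hours replicate 3 lay among the later arrays. The limma change of Mb was −1.63 ± 0.47 (adjusted p = 0.035) at 3 days and −0.82 ± 0.47 (adjusted p = 0.28) at 14 days. Mb lost its call of 3 days against 0 hours without 0 hours replicate 1 (adjusted p = 0.13), without 0 hours replicate 2 (adjusted p = 0.11), without 3 days replicate 1 (adjusted p = 0.055) and without 3 days replicate 3 (adjusted p = 0.15) in limma. Ckmt1, the mitochondrial creatine kinase of tissues other than muscle, had a signal of 434, 923 and 528 at 0 hours, 612, 599 and 479.6 at 2 hours, 803, 634 and 491 at 3 days, and 1052, 694 and 703 at 14 days, and its groups overlapped. Its changes were 0.08 ± 0.28 (adjusted p = 0.88) and 0.43 ± 0.28 (adjusted p = 0.35) in limma.

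The slow myosin genes were bright on 1 array. On 0 hours replicate 1, Myh7, the heavy chain of slow fibres and of the heart, had 5104 units, against 46.8, 70.6 and 407 as the lowest, median and highest of the other 11. Myl2, the slow regulatory light chain, had 4890.3 units, against 14.2, 88.3 and 547 as the lowest, median and highest of the other 11. Myl3, the slow essential light chain, had 1305 units, against 6.10, 17.7 and 71.2 as the lowest, median and highest of the other 11. These 3 genes were not tested, because they were above the median on fewer than 3 arrays. Myh7 was 12.6 times and Myl2 8.94 times the highest other array, and Myl3 was at least 5.79 times, counted from the floor. Of the other 11 arrays, the floor held 7 for Myh7, 10 for Myl2 and 11 for Myl3.

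Slow troponins, which are not in the set, stood high on the same array. Tnnc1 had 1594 units, against 13.5, 98.8 and 428 as the lowest, median and highest of the other 11. Tnnt1 had 6169 units, against 57.4, 837 and 1519.9 as the lowest, median and highest of the other 11, and Tnni1 had 2978 units, against 73.1, 619.7 and 1870.4 as the lowest, median and highest of the other 11. The high signal of Myh7, Myl2 and Myl3 at 0 hours was thus on 1 array alone. Some of these slow genes, among them Myh7 and Myl2, are shared with the heart. Of 6 heart markers listed, 2 had a probe set and 0 passed the filter for testing. Nppb reached no more than 268 units on any array and Tnnt2 no more than 340.5. The source of the slow signal on 0 hours replicate 1 was not tested. Neither Csrp3 nor Mb, of slow and oxidative fibres, stood apart on that array: Csrp3 had 1779 units on 0 hours replicate 1, against 2358 on 0 hours replicate 2, and Mb had 10102 units, against 8881. Tpm3 was brightest there too, and without that array the change of Tpm3 at 3 days was −0.03 in place of −0.76.

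Developmental and synaptic genes were near the floor. Myh8, the perinatal heavy chain, had a signal of 148, 315 and 45.6 at 0 hours, 198, 63.5 and 128 at 2 hours, 93.8, 169 and 155 at 3 days, and 410.3, 644 and 226 at 14 days. The 14 days arrays included its 2 highest values, and 8 of 12 arrays were at the floor. Myh3, the embryonic heavy chain, had a signal of 95.2, 90.7 and 81.5 at 0 hours, 63.2, 13.8 and 42.7 at 2 hours, 129, 204 and 293 at 3 days, and 201, 411 and 59.8 at 14 days, with 10 arrays at the floor. Of the acetylcholine receptor subunits, Chrna1 had a signal of 132, 221 and 83.0 at 0 hours, 24.7, 36.7 and 41.3 at 2 hours, 189, 202 and 264 at 3 days, and 24.3, 19.3 and 17.2 at 14 days, with 11 arrays at the floor. Chrnb1, the beta subunit, had a signal of 455, 399 and 444 at 0 hours, 274, 219 and 354 at 2 hours, 214, 254 and 202 at 3 days, and 69.0, 323 and 122 at 14 days. Its 3 highest arrays were those of 0 hours, and 5 later arrays were at the floor. In the limma fit without the filter on low signal its change was −0.63 ± 0.18 (adjusted p = 0.12) at 2 hours, −0.88 ± 0.18 (adjusted p = 0.029) at 3 days and −0.77 ± 0.18 (adjusted p = 0.054) at 14 days, each a lower bound in size, where 5.25% of all 5599 genes were called at 3 days. Chrng, the fetal subunit, lay between 13.1 and 333.5 units, with 10 arrays at the floor. Cacna2d1 lay at the floor on all 12 arrays, Casq2, the store protein of slow fibres and heart, on 8, and Actn2, an alpha-actinin, on 3, with 162 to 478 units and later arrays that overlapped those of 0 hours. In the fit without the filter none of the 11 genes other than Chrnb1 passed in any of the 5 comparisons, and at an unadjusted p under 0.05 only Myh8 did, at 14 days against 3 days. Values at the floor have no order, so no changes are given for these 10 genes.

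**Figure D3:**
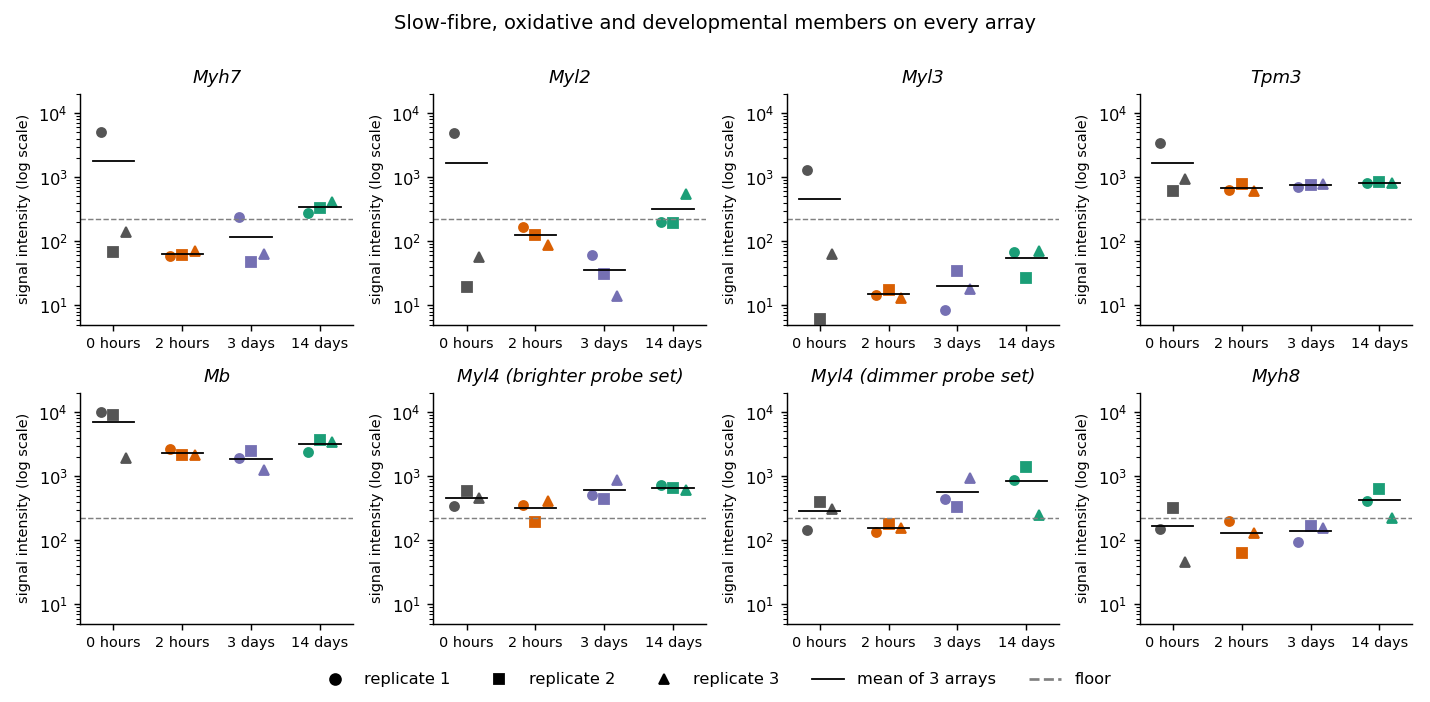
Signal intensity in units (log y axis) of genes of slow or oxidative fibres (Myh7, Myl2, Myl3, Tpm3 and Mb) and developmental genes (both probe sets of Myl4, and Myh8) on each of the 12 arrays by time after injury (x axis). Symbols are replicates 1 to 3, solid lines are means of 3 arrays, and the dashed line is the floor of 225.4 units. For Myh7, Myl2, Myl3 and Tpm3 the 0 hours replicate 1 array lies above all others.

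Array by array, the muscle genes moved with the rest of the muscle signal. Each gene's log2 signal was set against its own mean over the 12 arrays, and the median over the 29 genes was taken on each array. It was highest on the 3 arrays of 0 hours, at 0.95, 0.50 and 0.39 for replicates 1, 2 and 3. It was 0.24, 0.12 and 0.03 at 2 hours. At 3 days it was 0.03, −0.34 and −1.01, and at 14 days −0.53, −0.04 and −0.08. The 3 days arrays thus spread over a wide range, with replicate 1 level with the 2 hours arrays. The 0 hours replicate 1 array was the highest of the 12 for 19 of the 29 genes, and 3 days replicate 3 the lowest for 21.

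The 17 other muscle genes gave the same order at both ends. Their mean log2 signal was 12.04 ± 0.49 (SD, n = 3) on the 0 hours arrays, 11.49 ± 0.13 on the 2 hours arrays, 11.08 ± 0.44 on the 3 days arrays and 11.13 ± 0.22 on the 14 days arrays. Of the 17, 2 (Tnni1 and Tnnt1, both slow troponins) fell at 2 hours (1.67% of all genes), 9 at 3 days (4.40%) and 11 at 14 days (3.25%) against 0 hours, and none rose. These counts moved with single arrays too. The share of all genes called in either direction in the same fit is in brackets. At 2 hours 0 fell without 0 hours replicate 1 (4.14%). At 3 days 2, Tnnc2 and Cox8b, fell without 3 days replicate 3 (5.12%). Without 0 hours replicate 1 the count at 3 days was 3, the same and Tnni2 (8.89%). At 14 days 1, Tnnc2, fell without 14 days replicate 1 (3.42%), and 2, Tnnc2 and Cox8b, without 0 hours replicate 1 (4.52%). The count at 14 days was 7 without 14 days replicate 2 (6.07%) and 7 without 14 days replicate 3 (6.70%). The median log2 change of the 17 genes was −0.47, −1.09 and −1.10. Tnnc2, the fast troponin C, changed by −1.60 ± 0.35 (adjusted p = 0.0084) at 3 days and −1.73 ± 0.35 (adjusted p = 0.0084) at 14 days in limma. Cox8b, a muscle subunit of cytochrome oxidase, changed by −1.47 ± 0.31 (adjusted p = 0.0064) and −1.46 ± 0.31 (adjusted p = 0.0093), and Cox7a1, another, by −1.23 ± 0.31 (adjusted p = 0.019) and −1.30 ± 0.31 (adjusted p = 0.018). Cox8b lost its call of 14 days against 0 hours without 14 days replicate 1 (adjusted p = 0.052) in limma. Cox7a1 lost its call of 3 days against 0 hours without 0 hours replicate 1 (adjusted p = 0.076), without 3 days replicate 2 (adjusted p = 0.059) and without 3 days replicate 3 (adjusted p = 0.10) in limma. Cox7a1 lost its call of 14 days against 0 hours without 0 hours replicate 1 (adjusted p = 0.077) and without 14 days replicate 1 (adjusted p = 0.089) in limma. The calls of Tnni1 and Tnnt1 at 2 hours were both lost without 0 hours replicate 1, without 3 days replicate 2 or without any 1 of the 2 hours arrays, with an adjusted p of up to 0.11 for Tnni1 and 0.16 for Tnnt1 in limma. That of Tnnt1 was also lost without 3 days replicate 1 or any 1 of the 14 days arrays. At 3 days against 2 hours Tnnc2, Cox7a1 and Xirp1, a protein of muscle adhesion sites, fell and Tnni1 rose. Of these 4 calls that of Xirp1, −1.17 ± 0.24 (adjusted p = 0.0087) in limma, held whichever array was left out. The other 3 were lost without single arrays (2 hours replicate 3, 3 days replicate 2 and 3 days replicate 3 for each, and for Tnnc2 and Tnni1 also 2 hours replicates 1 and 2), with an adjusted p of up to 0.12, 0.073 and 0.14. This list was chosen with earlier results of these arrays known.

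**Figure D4:**
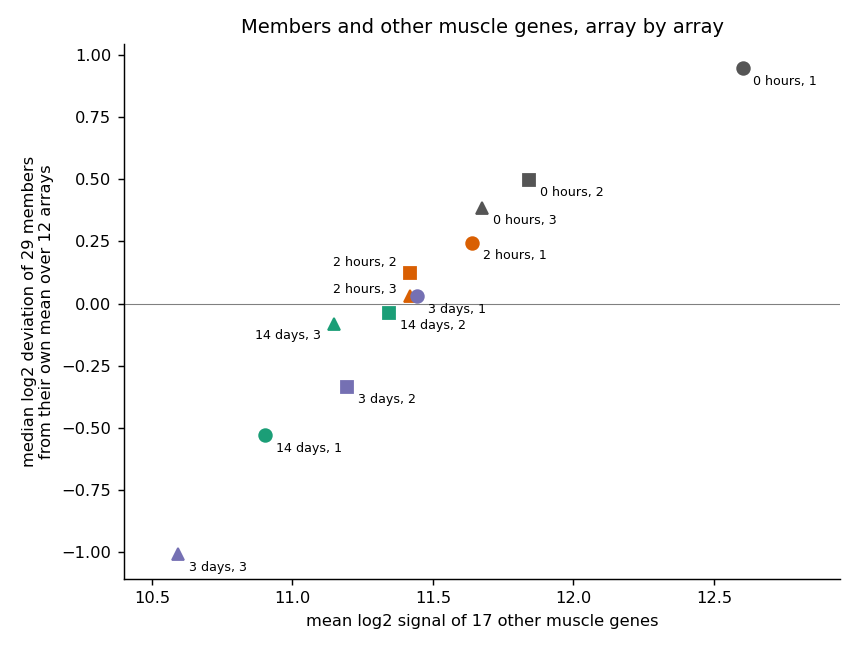
Median log2 deviation of the 29 tested muscle genes from their own means over 12 arrays (y axis) against the mean log2 signal of 17 other muscle genes (x axis), 1 point per array, coloured by time point with the replicate number in its label. The points run from 3 days replicate 3, at 10.59 and −1.01, to 0 hours replicate 1, at 12.60 and 0.95. Both measures come from the same arrays.

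The changes were also fitted with a covariate. With the mean of the 17 other muscle genes as a term, 0 of the 29 genes were called at 3 days and 0 at 14 days in limma, and their median changes were −0.11 and −0.08. In that fit 6 genes of all 3477 (0.173%) were called at 3 days and 18 (0.518%) at 14 days. The largest change at 3 days in that fit was −1.03, for Ank1. The change of Ckmt2 turned to 0.24 at 3 days and 0.21 at 14 days, and that of Ckm to 0.21 at 3 days. At an unadjusted p under 0.05, 2 of the 29 genes passed at 3 days (Ank1 and Myoz1) and 2 at 14 days (Ank1 and Tpm1). At 2 hours the same fit called 1 gene, Ckmt2, with a change of 1.08 ± 0.24 (adjusted p = 0.020) in limma, where 3.74% of all genes were called. The mean of the 17 genes was 11.68 to 12.60 on the 0 hours arrays and 11.42 to 11.64 on the 2 hours arrays. It was 10.59 to 11.44 on the 3 days arrays and 10.90 to 11.34 on the 14 days arrays. Because no later range overlaps that at 0 hours, this mean and time cannot be told apart in the changes against 0 hours.

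RNA quality moved with time as well. The log2 ratio of the Gapdh control probe sets for the 3′ over the 5′ end of the mRNA was 1.99 ± 0.29 (SD, n = 3) on the 0 hours arrays, 1.54 ± 0.46 on the 2 hours arrays, 0.52 ± 0.50 on the 3 days arrays and 0.21 ± 0.08 on the 14 days arrays. A higher ratio goes with more degraded RNA. With that ratio as a term, 0 of the 29 genes were called at 3 days and 0 at 14 days in limma, where 0.115% and 0.0575% of all genes were called. At an unadjusted p under 0.05, 3 passed at 3 days (Ank1, Mb and Myoz1) and 0 at 14 days. The median changes of the 29 genes were −0.61 and −0.39, and 24 and 22 of them were negative. The ratio was 1.71 to 2.28 on the 0 hours arrays, 0.05 to 1.05 on the 3 days arrays and 0.16 to 0.30 on the 14 days arrays. Because these ranges at 3 and 14 days do not overlap that at 0 hours, the ratio and time cannot be told apart in this fit. The part of RNA quality in the falls was not tested.

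**Figure D5:**
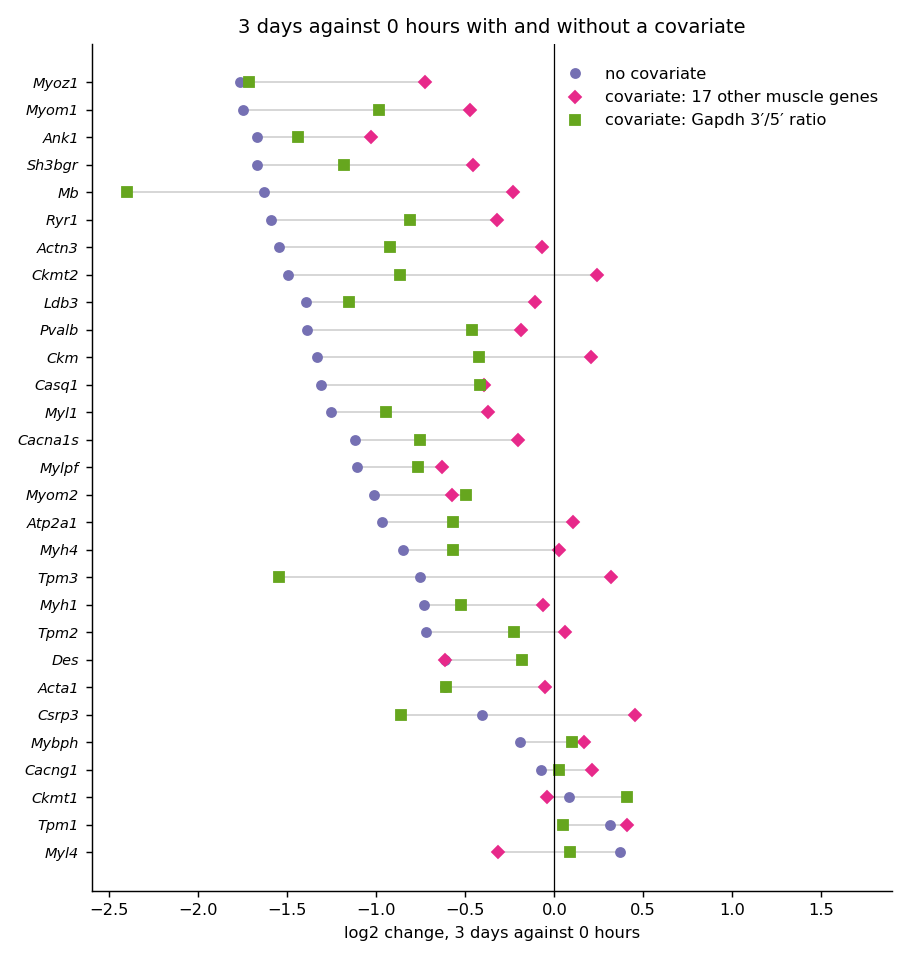
Log2 change at 3 days against 0 hours (x axis) of the 29 tested muscle genes from 3 limma fits: without a covariate (circles), with the mean of 17 other muscle genes (diamonds) and with the Gapdh 3′/5′ ratio (squares). The median was −1.11, −0.11 and −0.61 in these 3 fits, and Ank1 lies furthest left among the diamonds.

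By fibre type, 5 of the 8 tested fast-fibre genes (Myl1, Mylpf, Actn3, Casq1 and Pvalb) fell at 3 days and the same 5 at 14 days. The median log2 changes of the 8 were −1.18 and −1.10, and Myh1, Myh4 and Atp2a1 made up the rest. Of all genes 4.40% fell at 3 days and 3.25% at 14 days. Of the list of slow-fibre genes 2 were tested, Tpm3 and Csrp3, with median changes of −0.58 and −0.46, and neither passed. Mb, of oxidative fibres and on neither list, fell at 3 days, as given above. The difference between fast and slow genes was not tested.

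Markers of other cell types changed on the same arrays. All 9 macrophage genes rose at 3 days (8.89% of all genes), with a median log2 change of 1.87. At 14 days 1, Ctss, rose (6.90% of all genes), and 6 of the 9 passed at an unadjusted p under 0.05 in limma. Their mean log2 signal was 10.04 to 10.32 on the 0 hours arrays, 9.75 to 10.82 on the 2 hours arrays, 11.75 to 12.25 on the 3 days arrays and 10.80 to 10.85 on the 14 days arrays. Of 4 smooth muscle genes, 0 passed limma's test at 3 days (2 at an unadjusted p under 0.05) and Myh11 fell at 14 days, with a change of −1.21 ± 0.32 (adjusted p = 0.026) in limma. Of all genes 13.3% changed in either direction at 3 days and 3.25% fell at 14 days. Myh11 lost its call of 14 days against 0 hours without 0 hours replicate 1 (adjusted p = 0.051), without 0 hours replicate 2 (adjusted p = 0.068), without 14 days replicate 1 (adjusted p = 0.11) and without 14 days replicate 2 (adjusted p = 0.099) in limma. Ctss lost its call of 14 days against 0 hours without 0 hours replicate 1 (adjusted p = 0.12), without 0 hours replicate 3 (adjusted p = 0.074), without 14 days replicate 1 (adjusted p = 0.098), without 14 days replicate 2 (adjusted p = 0.080) and without 14 days replicate 3 (adjusted p = 0.056) in limma. The mean log2 signal of the smooth muscle genes was 9.84 to 10.01 on the 0 hours arrays and 9.72 to 9.99 on the 2 hours arrays. It was 9.31 to 9.64 on the 3 days arrays and 9.53 to 9.69 on the 14 days arrays, below all 0 hours arrays. Not every smooth muscle gene went that way. Tagln had 1694.5, 1113 and 966 units at 0 hours and 1721, 1420 and 1544 at 14 days. Acta2 had 1015, 1314 and 708 units at 0 hours and 894.5, 914 and 944 at 14 days. The median log2 change of the 4 genes was −0.44 at 3 days and −0.25 at 14 days. Of 5 keratinocyte genes, Col17a1 rose at 2 hours, Jup at 3 days, and Jup and Krt1 at 14 days. The mean log2 signal of the 5 was 12.56 to 12.91 on the 0 hours arrays and 13.08 to 13.14 on the 2 hours arrays. It was 13.03 to 13.20 on the 3 days arrays and 13.43 to 13.84 on the 14 days arrays. Not all 5 went up at each time. Krt1 had 3653, 5217 and 6973.5 units at 0 hours and 4177, 2783 and 2875 at 2 hours. Krt10 had 21405, 26101 and 22103 units at 0 hours and 19611, 20777 and 15008.5 at 3 days. Neither fall passed the test. Jup lost its call of 3 days against 0 hours without 0 hours replicate 1 (adjusted p = 0.089), without 0 hours replicate 2 (adjusted p = 0.077), without 3 days replicate 2 (adjusted p = 0.12) and without 3 days replicate 3 (adjusted p = 0.13) in limma. Col17a1 lost its call of 2 hours against 0 hours without 2 hours replicate 3 (adjusted p = 0.069) in limma.

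Of 6 fibroblast genes, Col1a1, Col1a2 and Col3a1, chains of fibrillar collagen, fell at 2 hours, Col1a1 and Col1a2 fell at 3 days, and 0 passed at 14 days (3 at an unadjusted p under 0.05). Of all genes 1.67% fell at 2 hours and 4.40% at 3 days, and 10.2% changed in either direction at 14 days. The changes at 3 days were −0.95 ± 0.18 (adjusted p = 0.0040) for Col1a1 and −1.27 ± 0.19 (adjusted p = 0.0007) for Col1a2 in limma, and both held whichever array was left out. A second probe set of Col1a1, not used in the fit, had 40601, 35460 and 43053 units at 0 hours. It had 9553, 8378.5 and 7496 at 3 days, and 9887, 11080 and 8490 at 14 days. On that probe set the 14 days arrays thus stayed far below those of 0 hours, which was not tested. The call of Col3a1 at 2 hours was lost in 8 of the 12 fits that left out 1 array, with an adjusted p of up to 0.12 in limma, and held only without 0 hours replicate 2, 3 days replicate 1, 3 days replicate 3 or 14 days replicate 1. Not all 6 fibroblast genes went this way, and their median log2 change was −0.42 at 2 hours, −0.09 at 3 days and −0.19 at 14 days. Pdgfra had 1213.5, 1421 and 662 units at 0 hours and 1893, 1666 and 1860.5 at 3 days, without passing the test. The mean log2 signal of the fibroblast genes was 13.39 to 13.48 on the 0 hours arrays, 13.01 to 13.12 on the 2 hours arrays, 13.12 to 13.29 on the 3 days arrays and 13.23 to 13.47 on the 14 days arrays. None of 4 adipocyte genes passed limma's test against 0 hours, and at an unadjusted p under 0.05 there was 1 at 2 hours, 0 at 3 days and 1 at 14 days. Their mean log2 signal was 10.43 to 11.52 on the 0 hours arrays, 11.22 to 11.78 on the 2 hours arrays, 10.14 to 11.18 on the 3 days arrays and 10.07 to 10.83 on the 14 days arrays. Its lowest values were 10.07 on 14 days replicate 1 and 10.14 on 3 days replicate 3, which were also the lowest arrays for the muscle genes, and 0 hours replicate 1, at 11.52, lay below 2 hours replicates 2 and 3 and above the other 9 arrays. The part of these shifts in the muscle values was not tested.

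For 9 of the genes more than 1 probe set was present. Of 10 further probe sets, 9 had the same sign of change as the one used, both at 3 days and at 14 days against 0 hours. For Pvalb the changes at 3 days were −1.39 on the probe set used and −2.12 on the other, and for Atp2a1 −0.97 and −1.40. For Ank1 the 3 probe sets gave −1.67, −1.04 and −0.87, for Sh3bgr −1.67 and −0.87, and for Ckmt2 −1.50 and −1.09. Actn3 gave −1.55 and −1.49, and Mylpf −1.11 on both. The exception was Ckmt1, whose second probe set lay at the floor on 11 of 12 arrays.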

How the data were processed

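Total RNA of 12 mouse skin samples was measured on 1 Affymetrix array each, and groups and replicate numbers came from the labels. The deposited values are signal intensities per probe set on a linear scale. Scaling, software and filters were not given in the sources used here. Of 7275 probe sets, 27 were controls, 6551 named 1 gene, 251 several and 446 none. No further scaling was applied. Values were floored at the 25th percentile and taken to log2, and for each gene the probe set with the highest mean was used. A change of a gene with arrays at the floor is a bound. A single limma fit (version 3.58.1, in R 4.3.3) covered the 12 arrays, with a coefficient for each time point. It had 8 residual and 6.64 prior degrees of freedom, and p-values took Benjamini-Hochberg adjustment over 3477 genes. Values after ± are standard errors of that fit unless SD is named. The smallest p of an exact permutation test on 3 against 3 arrays is 0.1. The number of arrays limits the precision. The muscle genes, the gene lists and the tests were chosen with earlier results of these data known. Genes given array by array are, in each role, up to 4 with the smallest p of a test over all time points, and any called at 2 hours or running against the rest. Genes outside the set are up to 4 per list by the same p, and the slow troponins, the heart markers, Krt10, Gapdh and genes named to account for a count of 5 or fewer were picked with their values known. The alternatives tried were quantile normalization, a lower floor (the 10th percentile, 113.7 units), no filter, the most variable probe set, a replicate block, covariates for the other muscle genes and for the Gapdh ratio, only the time points compared, and leaving out single arrays. The labels give no pairing of arrays. Deviations of same-numbered arrays had a median correlation of −0.066 and so gave no sign of pairing, but with 3 arrays per time point they cannot exclude it. The limma fit of the 3 comparisons with 0 hours was tested on simulated data. Python 3.11.15 with pandas 2.3.3 and matplotlib 3.10.9 drew the figures.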

Additional observations from a re-analysis of the deposited data

How the results depend on the processing

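The counts of muscle genes called, of 29 tested, are given with the share of all genes called in the same fit in brackets. They were 1 at 2 hours (5.67%), 16 at 3 days (13.3%) and 14 at 14 days (10.2%) against 0 hours. There were 3 between 2 hours and 3 days (9.40%), 0 between 3 days and 14 days (3.39%), and 16 in an F-test over the 4 time points (21.2%). Leaving out each array in turn gave 0 to 3 at 2 hours (2.07% to 9.09%), 6 to 20 at 3 days (5.12% to 16.0%) and 1 to 15 at 14 days (3.42% to 14.0%). It gave 0 to 9 between 2 hours and 3 days (3.22% to 11.8%) and 0 throughout between 3 days and 14 days (1.70% to 3.65%). In the F-test it gave 13 to 18 (13.9% to 24.8%). Quantile normalization gave 3 at 2 hours (5.21%) and 1 between 2 hours and 3 days (9.24%), and the lower floor gave 1 in that comparison (8.60%). Without the filter 5599 genes and all 40 muscle genes were tested. The counts of 40 were 7 at 3 days (5.25% of all genes), 2 at 14 days (4.30%), 0 between 2 hours and 3 days (3.11%) and 5 in the F-test (9.02%). Fitting only the arrays of the time points compared left fewer arrays to estimate the spread. That gave 0 for 2 hours (1.81%), 7 for 3 days (6.21%) and 8 for 14 days (4.40%) against 0 hours. The covariate for other muscle genes gave 0 at 3 days, 0 at 14 days and 1 in the F-test, and it turned the change of Ckm at 3 days to 0.21 and that of Ckmt2 to 0.24 at 3 days and 0.21 at 14 days. The Gapdh covariate gave 0 at 2 hours (3.11%), 0 at 3 days (0.115%) and 0 at 14 days (0.0575%) against 0 hours. It also gave 0 between 2 hours and 3 days (0.460%) and 0 in the F-test (5.90%). The replicate block gave 0 for 2 hours (4.26%), 16 for 3 days (11.8%) and 14 for 14 days (9.12%) against 0 hours. With it 4 were called between 2 hours and 3 days (7.36%) and 15 in the F-test (17.4%). Of 18 same-numbered pairs of arrays, 2 had deviations from their group means that correlated above 0.1 (median −0.066, from −0.20 to 0.20), and 3 of 12 arrays correlated best with an array of their own number. Over 34 called single-gene values and 20 alternatives each, 449 of 680 kept their direction and their call, 228 kept the direction only and 3 turned. The cause of these differences was not tested, apart from the numbers of genes and arrays named. Signal near the floor limits what can be said of the 11 genes not tested.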

Other observations

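Among genes of muscle precursor cells, 6 had a probe set and 4 were tested. Myog, a transcription factor of differentiating myoblasts, had a signal of 377, 279.6 and 975 at 0 hours, 232, 154 and 377 at 2 hours, 704, 684 and 823 at 3 days, and 653, 840.3 and 453 at 14 days. The 3 days arrays lay above the 2 hours arrays, and 0 hours replicate 3 was the highest array of all. Its limma change was 1.44 ± 0.37 (adjusted p = 0.027) at 3 days against 2 hours, and 0.65 ± 0.37 (adjusted p = 0.26) at 3 days against 0 hours. Because 1 of the 2 hours arrays lay under the floor of 225.4 units, the first of these is a lower bound. Myog lost its call of 3 days against 2 hours without 2 hours replicate 1 (adjusted p = 0.081), without 2 hours replicate 2 (adjusted p = 0.10), without 3 days replicate 2 (adjusted p = 0.070) and without 3 days replicate 3 (adjusted p = 0.11) in limma. Ncam1, an adhesion molecule of regenerating and denervated fibres and of nerve, had a signal of 354, 308 and 366 at 0 hours, 493, 373 and 578 at 2 hours, 426, 513 and 386 at 3 days, and 952, 942 and 699 at 14 days. The 14 days arrays lay above all others. Its limma change was 1.32 ± 0.21 (adjusted p = 0.0018) at 14 days against 0 hours and 0.96 ± 0.21 (adjusted p = 0.019) at 14 days against 3 days. Ncam1 lost its call of 14 days against 3 days without 3 days replicate 1 (adjusted p = 0.051), without 3 days replicate 3 (adjusted p = 0.090), without 14 days replicate 1 (adjusted p = 0.078) and without 14 days replicate 2 (adjusted p = 0.11) in limma. Myod1, which commits cells to the muscle lineage, had changes of 0.13 ± 0.19 (adjusted p = 0.70) at 3 days and −0.02 ± 0.19 (adjusted p = 0.96) at 14 days in limma. Des, which the list of precursor genes shares with the sarcomere set, is described there.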
